A study of Mus musculus with 12 samples.

Results

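The repressing arm of the circadian clock was examined in mouse hippocampus through 10 genes: the period genes Per1, Per2 and Per3, the cryptochromes Cry1 and Cry2, the further repressors Gm129 (current symbol Ciart), Bhlhe40 and Bhlhe41, and the casein kinase 1 genes Csnk1d and Csnk1e. They were chosen by gene symbol and not by a cut-off on a measured value, but with earlier results of these data known. The library files held 13 of 30383 transcripts under these symbols, which gave 10 of 23329 genes, and all 10 genes passed the filter on low counts that left 14131 genes for testing. The groups were KO at CT22, KO at CT10, WT at CT22 and WT at CT10, with 3 libraries each. KO stands for adult mice that lack NONO and WT for adult wild type mice, all of strain C57BL/6. The labels do not spell out CT, name no treatment, and give neither the construction of the knockout allele nor whether tissue was pooled. Nothing in them says that the libraries of a group are from different animals, so p-values measure the spread between these libraries, which may be technical.

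In the mammalian clock, the activator pair CLOCK and BMAL1 binds E-boxes and switches on the Per and Cry genes, whose protein products assemble, return to the nucleus and inhibit that pair. Casein kinases 1 delta and epsilon phosphorylate PER proteins and so set how long they last, while CIART and the BHLHE proteins also repress transcription driven through E-boxes. NONO is a nuclear RNA- and DNA-binding protein that has been found in complexes with PER proteins, and clock genes are active in hippocampal neurons and glia.

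The E-box is the element through which this loop closes, and the D-box is bound by the clock-driven factor DBP. Promoter sequences of RefSeq on build GRCm38.p6, from 250 bases before to 50 bases after the start site, were found for 7 of the 10 members in 11 windows. Both strands were searched for the E-box CACGTG, its variant CACGTT, the D-box TTATGTAA and the cAMP response element TGACGTCA. Overlapping matches were allowed, and no printed match overlaps another. An E-box lay in 4 of the 11 windows, 1 each of Per1, Cry1, Gm129 and Bhlhe41, against 7.15% of all 32851 RefSeq windows. The variant lay in 2 windows, of Cry1 and Cry2 (4.68% of all windows), and the D-box in 1, of Per3 (0.938%). The cAMP response element lay in 0 windows of members and in 1.79% of all windows. The following 4 windows are shown because they carry 3 E-boxes in Gm129, which differed most between the CT labels, 2 D-boxes in Per3, and single E-boxes in a period gene and a cryptochrome. Capitals mark the matches, and AACGTG is the variant read on the other strand.
Gm129, chr3:95882179-95882478, minus strand: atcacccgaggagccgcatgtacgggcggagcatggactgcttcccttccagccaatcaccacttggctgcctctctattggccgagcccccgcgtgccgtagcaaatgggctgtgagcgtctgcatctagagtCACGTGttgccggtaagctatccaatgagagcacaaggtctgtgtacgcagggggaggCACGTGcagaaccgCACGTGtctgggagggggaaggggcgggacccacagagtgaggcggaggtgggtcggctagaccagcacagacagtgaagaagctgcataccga
Per3, chr4:151044616-151044915, minus strand: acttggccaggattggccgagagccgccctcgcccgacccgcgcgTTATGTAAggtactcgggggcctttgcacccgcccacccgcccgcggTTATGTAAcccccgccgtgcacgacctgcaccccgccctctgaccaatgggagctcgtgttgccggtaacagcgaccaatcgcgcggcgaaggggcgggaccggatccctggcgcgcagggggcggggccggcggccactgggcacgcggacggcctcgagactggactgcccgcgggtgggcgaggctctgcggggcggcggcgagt
Per1, chr11:69098699-69098998, plus strand: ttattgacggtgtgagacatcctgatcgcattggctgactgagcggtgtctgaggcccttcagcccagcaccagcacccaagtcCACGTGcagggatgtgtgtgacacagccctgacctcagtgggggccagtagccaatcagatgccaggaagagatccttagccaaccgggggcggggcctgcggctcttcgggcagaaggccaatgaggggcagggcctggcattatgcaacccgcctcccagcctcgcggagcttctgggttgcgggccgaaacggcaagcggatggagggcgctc
Cry1, chr10:85185005-85185304, minus strand: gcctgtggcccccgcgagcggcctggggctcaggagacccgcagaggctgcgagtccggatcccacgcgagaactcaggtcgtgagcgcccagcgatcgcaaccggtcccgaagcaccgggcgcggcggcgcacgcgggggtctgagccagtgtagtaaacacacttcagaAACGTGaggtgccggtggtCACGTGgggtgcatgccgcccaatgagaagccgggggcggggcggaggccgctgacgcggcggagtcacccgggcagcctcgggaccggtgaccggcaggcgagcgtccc

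The E-boxes of Gm129 began 116, 58 and 44 bases before the start site, that of Per1 166 bases before it and that of Cry1 60 bases before it. The D-boxes of Per3 began 205 and 158 bases before the start site. A match describes the letters in these windows and says nothing of whether a factor binds there.

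**Figure D1:**
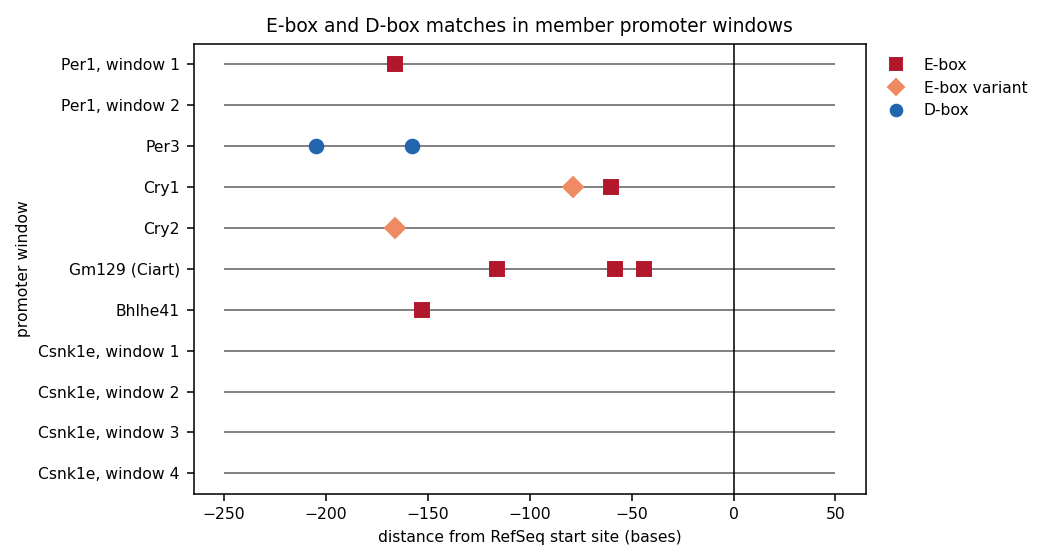
Positions of the E-box, its variant and the D-box in the promoter windows of the members, in bases from the RefSeq start site (x axis). Each of the 11 windows has 1 row, and the cAMP response element, with 0 matches, is not drawn. Gm129 carries 3 E-boxes and Per3 carries 2 D-boxes, and the Csnk1e windows carry no match.

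Library totals lay between 4435606 counts in KO CT22 replicate 2 and 10911046 counts in WT CT22 replicate 3. Nono, the targeted gene, had 0 to 4 counts in each KO library, against 1147 to 1814 counts in each WT library, and 0 counts allow up to 0.34 CPM in that library (3 counts). CPM are counts divided by library size, after scaling by edgeR's TMM method. The 12 hippocampal markers, such as Prox1 of the dentate gyrus and Wfs1 of CA1, were all detected and summed to 1199 to 1444 CPM per library. Of 10 markers of the suprachiasmatic nucleus and hypothalamus, Six6 was at 0 in every library and Avp reached at most 0.846 CPM. Vip, which hippocampal interneurons also express, reached 21.8 CPM, and Prokr2 lay between 3.48 and 7.13 CPM. The rest of the list reached at most 0.896 CPM, in Lhx1. The 14 choroid plexus markers summed to between 232 and 5280 CPM by library in KO at CT22, and 374 and 4860 in KO at CT10. In WT they summed to between 399 and 2179 CPM at CT22, and 338 and 2083 at CT10. No member was called in any comparison when the library richest in them was left out of each group. None was called with all libraries either, so that count says nothing of the effect of these markers' tissue. In that setting 7 log2 changes turned sign, as given at the end.

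A pair of KO libraries went against their CT label. A position was computed for each library from 10 clock transcription factors that are not members, at 0 for the mean of WT CT10 and 1 for the mean of WT CT22. For a WT library, the mean of its own group left that library out, so its scale differs slightly from that of the KO libraries. KO CT22 replicate 1 stood at -0.233, whereas replicates 2 and 3 stood at 1.68 and 1.61. KO CT10 replicate 3 stood at 1.59, whereas replicates 1 and 2 stood at -0.077 and -0.076. The WT libraries kept to the side of their label, at 1.06, 0.581 and 0.791 for CT22 and at -0.011, 0.285 and -0.067 for CT10. Results are given by the labels as deposited, and then without the library labelled KO CT22 replicate 1 and the library labelled KO CT10 replicate 3. The genes behind the position belong to the same clock as the members, so results without these libraries are not independent of that choice.

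**Figure D2:**
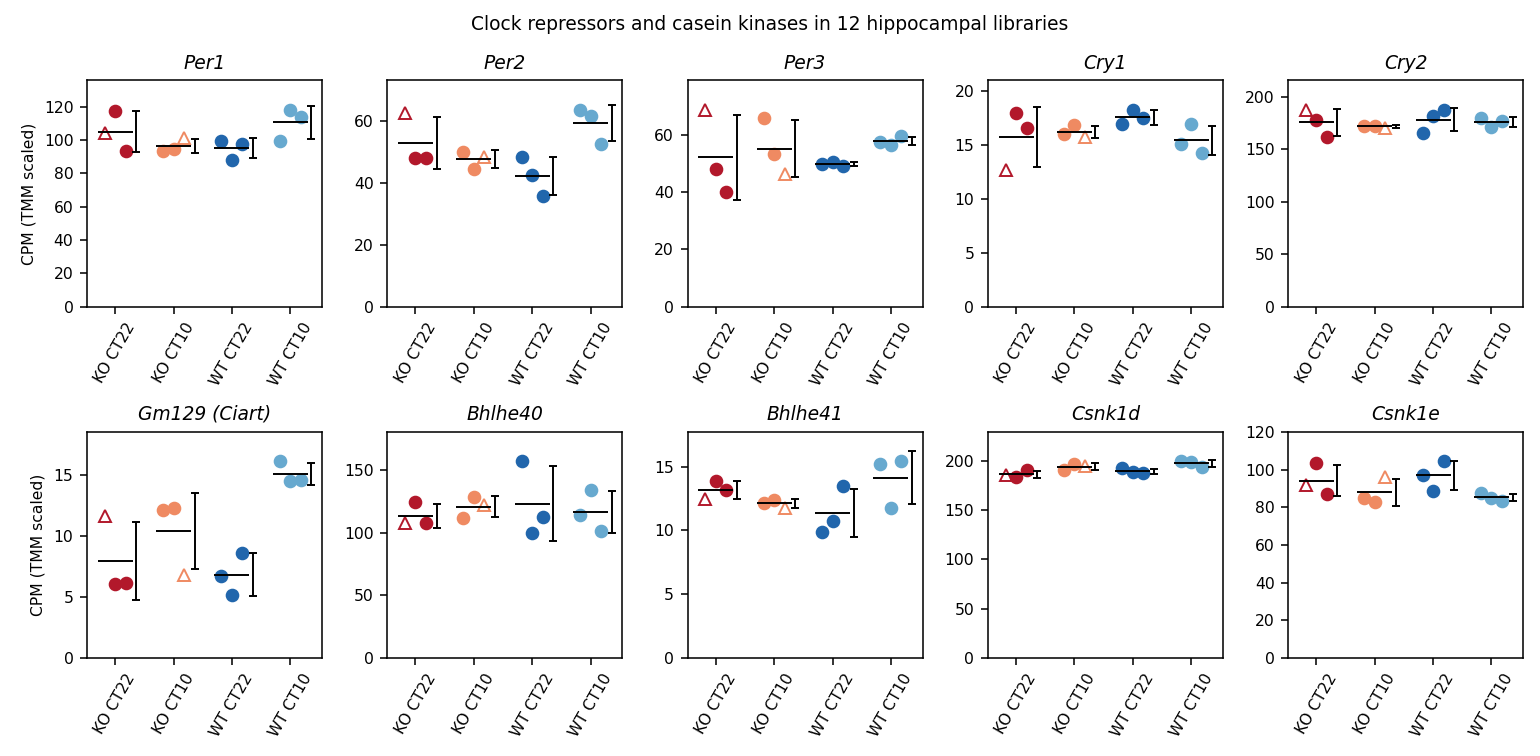
Level of each member in every library, in CPM on a linear axis from 0, by group. Points are libraries, horizontal lines are means, bars are ± 1 SD (n = 3), and open triangles are KO CT22 replicate 1 and KO CT10 replicate 3. Gm129 and Per2 lie lower in WT at CT22 than in WT at CT10 with no overlap. The means of Cry2, Csnk1d and Bhlhe40 lie close together in all groups, though Csnk1d too lies lower at CT22 without overlap in each genotype.

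Levels were compared between genes per length, in TPM (counts divided by transcript length and library size), over the 12 libraries. Csnk1d was the most abundant member at 130 ± 4.67 TPM, followed by Cry2 at 111 ± 5.04, Bhlhe40 at 96.2 ± 14.2 and Csnk1e at 83.7 ± 7.47 TPM (SD, n = 12 each). Per1 averaged 54.9 ± 6.03 TPM and stood above Bhlhe41, the next gene, in 12 of 12 libraries. Below it, Bhlhe41 at 23.2 ± 2.96, Per3 at 22.6 ± 3.66, Per2 at 21.8 ± 3.90 and Gm129 at 18.7 ± 7.19 TPM did not differ from their neighbours beyond their spread, since each exceeded the next in only 6 or 7 of 12 libraries. Cry1 was lowest at 13.6 ± 1.31 TPM. Gm129 had the largest relative spread of the 10 members, and Csnk1d the smallest.

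The question whether the members differed between the CT labels or between the genotypes was tested with edgeR's quasi-likelihood fit over all 14131 genes, with Benjamini-Hochberg adjustment and a threshold of 0.05. No member passed it in any of the 7 comparisons, so each count called is 0 of 10, also by DESeq2. The share of all genes called was 0% for CT22 against CT10 over both genotypes, in WT and in KO, and 0% for the difference of the KO effect between CT labels. It was 0.0212% for KO against WT over both CT labels, 0.0142% at CT22 and 0.00708% at CT10. At an unadjusted p under 0.05, edgeR counted 2 members for CT22 against CT10 over both genotypes (3.89% of all genes), 3 in WT (6.76%) and 0 in KO (3.16%). For KO against WT it counted 0 over both labels (6.35%), 1 at CT22 (10.9%), 1 at CT10 (3.09%) and 2 for the difference (6.09%). DESeq2 gave 1, 3 and 0 for the CT comparisons in that order, and 0, 1, 1 and 2 for those of genotype.

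Between CT labels, the libraries of the period genes stood apart in WT, with CT22 below CT10, and overlapped in KO, and none of these differences passed the adjusted threshold. Per2 (chr1:91415982-91459328, minus strand) encodes a core repressor of the loop. It had 48.3, 42.5 and 35.9 CPM in WT at CT22, against 63.8, 61.9 and 52.7 CPM in WT at CT10. All WT CT22 libraries lay below all WT CT10 libraries. The log2 change was -0.50 (SE 0.13, 95% interval -0.77 to -0.22, edgeR adjusted p = 0.722). In KO, Per2 had 62.6, 48.2 and 48.1 CPM at CT22, against 50.1, 44.5 and 48.6 CPM at CT10. These ranges overlapped, with a log2 change of 0.16 (edgeR adjusted p = 0.977). In tissue RNA, fewer cells of a type and less RNA per cell cannot be told apart.

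Per1 (chr11:69098956-69109957, plus strand), which also responds quickly to light and hormones, had 99.1, 88.0 and 97.6 CPM in WT at CT22, against 99.5, 118 and 114 CPM in WT at CT10. The groups did not overlap, though the gap between the nearest libraries was small. The log2 change in WT was -0.22 (SE 0.10, edgeR adjusted p = 0.722). In KO, Per1 had 104, 117 and 93.3 CPM at CT22, against 93.4, 94.8 and 101 CPM at CT10. The KO groups overlapped, with a log2 change of 0.12 (edgeR adjusted p = 0.977).

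Per3 (chr4:151003655-151044622, minus strand), a period gene that the loop can run without, had 49.6, 50.6 and 49.1 CPM in WT at CT22, against 57.6, 56.4 and 59.5 CPM in WT at CT10. The WT groups were narrow and did not overlap (log2 change -0.22, edgeR adjusted p = 0.766). In KO, Per3 had 68.7, 48.0 and 39.9 CPM at CT22, against 65.8, 53.3 and 46.2 CPM at CT10, and the groups overlapped. The highest KO CT22 value and the lowest KO CT10 value of Per3 belong to the libraries whose clock position goes against their label. Over both genotypes the log2 change of Per3 was -0.14 (edgeR adjusted p = 0.991). It was 0.03 without the library of each group that was highest in choroid plexus markers.

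Both cryptochromes, which give the PER-CRY complex its repressing strength, differed little. Cry1 (chr10:85131700-85185054, minus strand) had 16.9, 18.2 and 17.4 CPM in WT at CT22, against 15.1, 16.9 and 14.2 CPM in WT at CT10. The highest WT CT10 library lay just under the lowest WT CT22 library, and the log2 change was 0.18 (edgeR adjusted p = 0.757). In KO, Cry1 had 12.6, 17.9 and 16.6 CPM at CT22, against 16.0, 16.8 and 15.7 CPM at CT10, and the groups overlapped. Cry2 (chr2:92403647-92434069, minus strand) averaged 176 ± 12.8 CPM in KO at CT22, 172 ± 1.18 in KO at CT10, 178 ± 11.3 in WT at CT22 and 176 ± 4.35 CPM in WT at CT10 (SD, n = 3 each).

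Among the further repressors, Gm129 (chr3:95878505-95882228, minus strand), which encodes CIART and carries the 3 E-boxes shown above, had the largest CT difference of the members. It had 6.70, 5.16 and 8.62 CPM in WT at CT22, against 16.1, 14.5 and 14.5 CPM in WT at CT10, so that every CT22 library lay well below every CT10 library. The log2 change in WT was -1.13 (SE 0.27, 95% interval -1.71 to -0.55, edgeR adjusted p = 0.722). In KO, Gm129 had 11.6, 6.05 and 6.16 CPM at CT22, against 12.1, 12.3 and 6.76 CPM at CT10. The high KO CT22 value and the low KO CT10 value again belong to the libraries that go against their label. The log2 change in KO was -0.33 (edgeR adjusted p = 0.977), and over both genotypes it was -0.73 (SE 0.19, 95% interval -1.15 to -0.31, edgeR adjusted p = 0.991). These are small counts: 27 counts in KO CT22 replicate 2 gave 6.05 CPM with an exact Poisson 95% interval of 3.99 to 8.80 CPM, which covers counting error only.

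Bhlhe40 (chr6:108660629-108666925, plus strand) encodes DEC1, a repressor that binds E-boxes. It averaged 113 ± 9.60 CPM in KO at CT22, 121 ± 8.61 in KO at CT10, 123 ± 30.1 in WT at CT22 and 116 ± 16.6 CPM in WT at CT10 (SD, n = 3 each), and the groups overlapped. Bhlhe41 (chr6:145862737-145865340, minus strand), which encodes the related DEC2, had 9.90, 10.8 and 13.5 CPM in WT at CT22, against 15.2, 11.8 and 15.4 CPM in WT at CT10. These groups overlapped (log2 change -0.30, edgeR adjusted p = 0.722). In KO, Bhlhe41 had 12.4, 13.9 and 13.2 CPM at CT22, against 12.1, 12.4 and 11.8 CPM at CT10, and here CT22 lay above CT10 by a narrow margin.

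Of the kinases, Csnk1d differed little between groups and had a small spread, while Csnk1e varied more. Csnk1d (chr11:120961741-120991333, minus strand) had 185, 184 and 190.0 CPM in KO at CT22, against 190.1, 197 and 195 CPM in KO at CT10. In WT it had 192, 188.2 and 187.8 CPM at CT22, against 199.5, 198.9 and 193 CPM at CT10. CT22 lay below CT10 without overlap in either genotype, by a log2 change of -0.06 over both genotypes (edgeR adjusted p = 0.991). Csnk1e (chr15:79417852-79442057, minus strand) had 97.4, 88.9 and 104.5 CPM in WT at CT22, against 87.4, 85.0 and 83.4 CPM in WT at CT10. The WT groups did not overlap, and the log2 change was 0.19 in WT (edgeR adjusted p = 0.724) and 0.14 over both genotypes (adjusted p = 0.991). In KO, Csnk1e had 92.1, 103 and 87.1 CPM at CT22, against 84.9, 82.8 and 96.2 CPM at CT10, with overlap.

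Counted by separation of their libraries in WT, 7 of 10 members had no overlap between CT22 and CT10 (16.2% of all genes tested), with Per1, Per2, Per3, Gm129 and Csnk1d lower at CT22 and Cry1 and Csnk1e higher. In KO, 2 of 10 did (7.96% of all genes), Csnk1d lower and Bhlhe41 higher at CT22. The median log2 change of the 10 members was -0.14 in WT and -0.01 in KO, against 0.00 over all genes tested in each genotype. An exact two-sided permutation test, with CT labels exchanged within each genotype over 400 arrangements, gave p = 0.02 for Gm129, p = 0.005 for Csnk1d and p = 0.045 for Csnk1e. These are 3 of 10 members, at a background of 4.02% of all genes with p under 0.05 in the same test. The value of Csnk1d is the smallest these arrangements allow, for a difference of -0.06 on the log2 scale, and the other 7 of the 10 members tested did not reach 0.05.

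**Figure D3:**
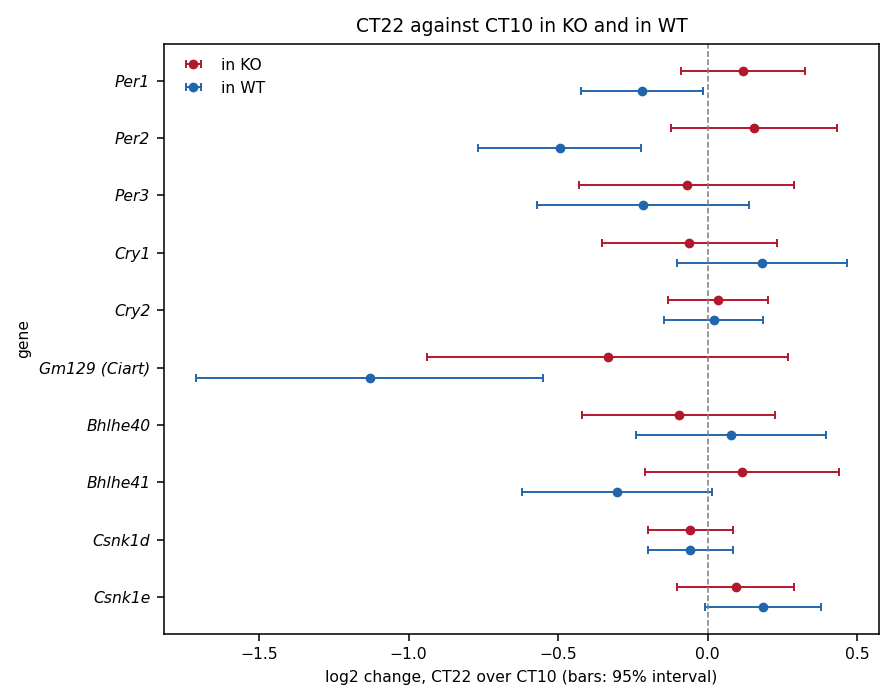
Log2 change of each member for CT22 over CT10 in KO and in WT, from edgeR's fit to all 12 libraries. Points are estimates and bars are 95% intervals. Gm129 is farthest from 0 at -1.13 in WT, followed by Per2 at -0.50 in WT.

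Without the libraries labelled KO CT22 replicate 1 and KO CT10 replicate 3, Gm129 passed the threshold for CT22 against CT10 over both genotypes. The remaining KO libraries held 6.05 and 6.16 CPM at CT22, against 12.1 and 12.3 CPM at CT10. The log2 change over both was -1.06 (SE 0.15, 95% interval -1.37 to -0.74, edgeR adjusted p = 0.0123), and Gm129 was then 1 of 9 genes called among 14228 tested (0.0633%). Dbp, Nr1d1 and Nr1d2, from the list by which the libraries were left out, were called too, at log2 changes of -1.14, -0.63 and -0.50. Per3 had 48.0 and 39.9 CPM in the remaining KO libraries at CT22, against 65.8 and 53.3 CPM at CT10, and its log2 change over both genotypes was -0.33 (edgeR adjusted p = 0.175). Per2, by contrast, had 48.2 and 48.1 CPM in those KO libraries at CT22, against 50.1 and 44.5 CPM at CT10, a log2 change of 0.02 in KO and -0.49 in WT (edgeR adjusted p = 0.977 and 0.350). In this set of libraries 5 of 10 members did not overlap between CT labels in KO, at a background of 35.4% of all genes. The permutation test with 120 arrangements gave p = 0.0167, the smallest possible, for Per3, Gm129, Csnk1d and Csnk1e, while 7.61% of all genes had p under 0.05. The libraries were left out for going against their CT label, which this test exchanges. That choice was not repeated in the arrangements, so these p-values are not exact and may be too small for clock genes.

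**Figure D4:**
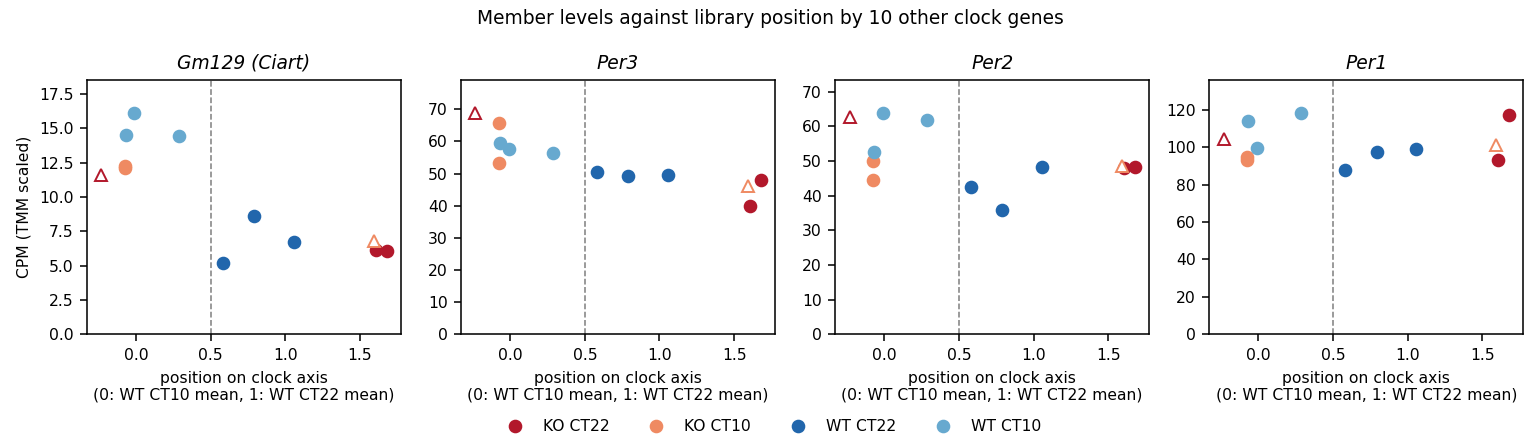
Level of Gm129, Per3, Per2 and Per1 in CPM (y axis) against the position of each library by 10 other clock genes (x axis, 0 at the WT CT10 mean, 1 at the WT CT22 mean, dashed line at 0.5). Each WT library was left out of the mean of its own group for its position. Open triangles are KO CT22 replicate 1 at -0.233 and KO CT10 replicate 3 at 1.59, and Gm129 in them, at 11.6 and 6.76 CPM, lies with the libraries at the same position.

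Between genotypes, averaged over the CT labels, no member passed the threshold. The estimates ran from -0.14 for Gm129 (95% interval -0.56 to 0.28) to 0.01 for Per2 (-0.19 to 0.20), with edgeR adjusted p from 0.926 to 0.999. The estimate of Gm129 was -0.36 without KO CT22 replicate 1 and -0.02 without KO CT10 replicate 3. The narrowest interval was that of Csnk1d, at -0.02 (-0.12 to 0.08), and that of Cry2 followed, at -0.03 (-0.14 to 0.09). Csnk1e was at -0.00 (-0.14 to 0.14), Per1 at -0.03 (-0.17 to 0.12) and Per3 at 0.00 (-0.25 to 0.26). Cry1 was at -0.06 (-0.26 to 0.15), Bhlhe40 at -0.04 (-0.26 to 0.19) and Bhlhe41 at -0.01 (-0.24 to 0.22). The median over the members was -0.03, against 0.01 over all genes tested. In the authors' deposited table of KO over WT the log2 ratios of the 10 members lay between -0.25 for Gm129 and -0.01 for Per3, each with an adjusted p of 1. The lowest exact permutation p for KO against WT among the 10 members, with genotypes exchanged within each CT label, was 0.1, for Csnk1d, and 5.33% of all genes had p under 0.05.

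Within a CT label, the Per2 estimates of KO over WT had opposite signs, and neither passed the adjusted threshold. The log2 change of KO over WT was 0.33 at CT22 (SE 0.13, 95% interval 0.06 to 0.61, edgeR adjusted p = 0.412) and -0.32 at CT10 (SE 0.13, 95% interval -0.59 to -0.04, adjusted p = 1). The KO and WT libraries overlapped at CT22, where KO replicates 2 and 3 lay just below the highest WT library, and did not overlap at CT10. The CT22 estimate leaned on KO CT22 replicate 1 at 62.6 CPM, and it was 0.18 without that library and 0.23 without WT CT22 replicate 3. The difference between both effects was 0.65 (SE 0.18, 95% interval 0.26 to 1.04, edgeR adjusted p = 0.737). Per1 had estimates of 0.14 at CT22 and -0.20 at CT10, and a difference of 0.34 (SE 0.14, edgeR adjusted p = 0.737). Gm129 stood at 0.25 at CT22 and -0.54 at CT10 (difference 0.79, edgeR adjusted p = 0.737), and Bhlhe41 at 0.20 and -0.22 (difference 0.42, adjusted p = 0.737). No member separated the genotypes at CT22 (13.7% of all genes did), and 2 of 10 did at CT10, Per2 and Gm129, both lower in KO (10.3% of all genes). The exact permutation test of the difference gave p = 0.015 for Per2 and p = 0.04 for Per1, with the other 8 members above 0.05, and 5.03% of all genes had p under 0.05. It exchanged genotypes within each CT label. It is thus exact for no genotype effect at either label, and not for an equal effect at both.

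Without the libraries labelled KO CT22 replicate 1 and KO CT10 replicate 3, the difference of the KO effect was 0.51 for Per2 (edgeR adjusted p = 0.873) and 0.37 for Per1 (adjusted p = 0.873). The Per2 estimate of KO over WT at CT22 was 0.18 (adjusted p = 0.669). For Gm129 the difference was 0.13 (adjusted p = 0.947), with KO over WT at -0.18 at CT22 and -0.31 at CT10. The permutation p over 100 arrangements was 0.04 for Per2 and 0.07 for Per1, and 3.59% of all genes had p under 0.05. The choice of libraries was not repeated in these arrangements either.

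**Figure D5:**
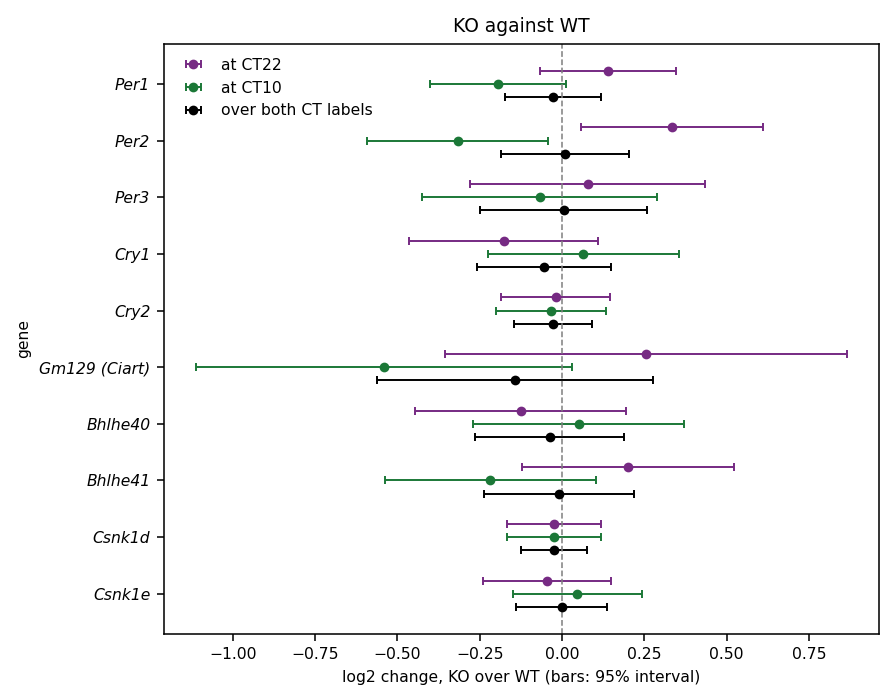
Log2 change of each member for KO over WT at CT22, at CT10 and over both CT labels, from edgeR's fit to all 12 libraries. Points are estimates and bars are 95% intervals. The intervals over both labels all include 0, and those of Per2 at CT22 (0.06 to 0.61) and at CT10 (-0.59 to -0.04) do not.

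A second transcript was listed for Per1, Cry2 and Csnk1d. In Per1 it was at 0 in 9 of 12 libraries and reached 12.9% of the counts of the gene in the highest, and in Cry2 the main transcript held 98.04% to 99.81%. In Csnk1d both transcripts were used about equally: the first held 45.4% to 58.7%, with a median of 50.5% (n = 12). Its share was 45.4% to 51.6% in KO at CT22 and 49.05% to 52.3% in KO at CT10, against 46.5% to 58.7% in WT at CT22 and 48.4% to 54.9% in WT at CT10. The mean share of KO minus WT was -4.08 percentage points (exact permutation p = 0.115, adjusted p = 0.173 over the 3 genes with 2 transcripts).

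The genes around the members were counted with the same fit. The 13 other clock transcription factors were the activators, the factors of the stabilising loop, and Dbp, Tef, Hlf and Nfil3. Of these, 0 passed the threshold in the 7 comparisons. Their median log2 change was 0.10 for KO against WT over both CT labels, against 0.01 for all genes. Of 23 genes for modification and turnover of PER and CRY, 0 passed, with a median of 0.03. Of 16 proteins found with PER complexes, Nono itself was lower in KO and Sfpq, its DBHS family partner, was higher, by 0.36 on the log2 scale (SE 0.05, edgeR adjusted p = 0.0398). Sfpq was higher by 0.53 at CT22 (adjusted p = 0.0349) and differed by 0.19 at CT10 (adjusted p = 1). Its adjusted p for the difference between the CT labels was 0.737. Without the libraries that go against their CT label, the estimate for Sfpq was 0.33 with an edgeR adjusted p of 0.253, and Nono alone of these 3 lists was called between the genotypes.

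As a description over the 12 libraries, which share their depth and tissue makeup, the gene outside the members whose log2 CPM most resembled Gm129 among 10992 genes was Nr1d1, the clock repressor REV-ERB alpha (Pearson r = 0.92), followed by Uba2 at 0.894 and Slc7a5 at 0.869. For Per2 these were Gria2 at 0.941, Fam179b at 0.932 and Mre11a at 0.927, and for Per3 Guf1 at 0.953, Zfp280d at 0.936 and Zfp46 at 0.926. For Per1 they were Cdan1 at 0.87, Cacng2 at 0.855 and Nfkbiz at 0.847. For Cry1 they were Aatk at 0.938, Cryab at 0.909 and Prr18 at 0.898, and for Cry2 Jph3 at 0.934, Agap2 at 0.918 and Nck2 at 0.911. Without the libraries that go against their CT label, these values fell to 0.875, 0.786 and 0.779 for Cry1. They rose to 0.973, 0.952 and 0.941 for Cry2. For Bhlhe40 they were Clcn2 at 0.883, Gcnt2 at 0.846 and Arap3 at 0.824, and for Bhlhe41 Pdcd7 at 0.852, Fance at 0.804 and Hist2h2aa1 at 0.80. For Csnk1d they were Ext1 at 0.867, Vbp1 at 0.863 and Aen at 0.862, and for Csnk1e Rassf1 at 0.941, Gigyf1 at 0.899 and Extl1 at 0.892. Within the members, Per3 and Gm129 were the most alike pair (r = 0.729), ahead of Per2 and Gm129 (r = 0.593).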

How the data were processed

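Libraries of polyadenylated hippocampal RNA were prepared with a stranded kit, per the labels' protocols. These mention both read layouts, paired and single, without saying which library had which. The tools named in the submitters' processing notes are RSEM 1.2.5, edgeR 3.0.6, TopHat 1.3.3 and FastQC, with mouse build mm10. The authors deposited 1 file per library with the estimated count and the TPM of each transcript, per the file headers. Their deposited series table holds log2 ratios, p-values and adjusted p-values for KO over WT, and a normalised signal per library, in 12 columns that match sample titles and 0 that do not. The signal was not used for tests. The sources used here do not say if reads were counted by strand, and so values of overlapping or antisense genes are uncertain.

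Estimated counts were summed per gene symbol and rounded. They were filtered with filterByExpr (minimum count 10), scaled by TMM (factors 0.979 to 1.02) and fitted with edgeR 4.0.16 in R 4.3.3, with robust quasi-likelihood dispersions and 1 mean for each of 4 groups over 12 libraries (8 residual degrees of freedom, biological coefficient of variation 12.3%). Replicate numbers came from the sample titles. Exact permutation tests enumerated every arrangement of log2(CPM + 0.5) values. Alternatives were DESeq2 1.42.0, other scaling, filter, dispersion and design settings, and sets of libraries. No replicate pair agreed within sampling noise. On simulated data, 1.5-fold and 2-fold changes were recovered at 68% and 88% for KO against WT over both CT labels (14021 genes), 70% and 92% for CT22 against CT10 over both genotypes (14016 genes), and 48% and 79% for CT22 against CT10 in WT (14007 genes). The false calls were 4 of 160, 10 of 172 and 8 of 135. The simulated counts took the spread of each gene from the fitted trend. They held no libraries against their CT label and no differences in tissue makeup. More genes were changed in them than were called in the real data, so these rates may exceed those for the real libraries.

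All 10 members are named in each comparison. For other lists, genes past the threshold are named, and for each member the 3 most similar genes by Pearson r among tested genes that average 5 CPM or more and whose symbol is not of the Gm-number or Rik kind. The members and lists were chosen with earlier results of these data known.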

Additional observations from a re-analysis of the deposited data

Results flagged for a closer look

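For 2 of the 10 members, the exact permutation test of the difference of the KO effect between CT22 and CT10 gave an unadjusted p under 0.05, as it did for 5.03% of all genes tested. Genotypes were exchanged within each CT label, so the test is exact for no genotype effect at either label, not for an equal effect. For Per2 the mean log2 difference of KO from WT was larger at CT22 than at CT10 by 0.63 (exact permutation p = 0.015), and for Per1 by 0.33 (p = 0.04). Neither passed edgeR's adjusted threshold over all genes (adjusted p = 0.737 for each). The KO values of both genes include those of KO CT22 replicate 1 and KO CT10 replicate 3, whose clock position goes against their label. Without them the differences were 0.52 for Per2 (permutation p = 0.04) and 0.37 for Per1 (p = 0.07). These p-values do not allow for the choice of libraries. The count of 2 members also fell to 1 when certain single libraries were left out. These were replicates 1 and 2 of KO CT22, KO CT10 and WT CT22, and replicate 3 of WT CT10.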

How the results depend on the processing

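Without the KO libraries that go against their CT label, the members called for CT22 against CT10 over both genotypes numbered 1 (Gm129, -1.06), against 0 with all libraries, and the permutation tests of the difference of the KO effect passed for 1 member, against 2. The permutation test of that difference, and the permutation and isoform tests without these libraries, were added after the data were seen. Without them the KO over WT estimates turned sign for Per2 (-0.075), Per3 (-0.0777), Cry1 (0.0225) and Bhlhe41 (0.0168), and for Gm129 at CT22 (-0.1755). When each group lost its library richest in choroid plexus markers, they turned sign for Per1 (0.045), Per2 (-0.064), Cry2 (0.0205), Bhlhe41 (0.0921) and Csnk1e (0.0601), as did Per3 for CT22 over CT10 over both genotypes (0.033) and in KO (0.2527). The KO over WT estimate of Per2 was -0.0068 with genotype as the only term, and that of Per3 was -0.0013 by DESeq2 and -0.0028 with no filter. The cause was not tested. All these sign changes concern estimates that pass no threshold. The count of members called was 0 in each comparison under every other alternative run.

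Nothing in the labels says that equal replicate numbers pair libraries. The correlation of deviations between same-numbered libraries ran from -0.252 to 0.33. Libraries of different number were not compared, so these values cannot decide whether libraries are paired. With the replicate block the count of members called was 0 in each comparison, and the KO over WT estimate of Per3 was -0.0198.

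Leaving out each library in turn, members called stayed at 0. The permutation counts ran from 0 to 1 for KO against WT (1 without KO CT22 replicate 3 or WT CT10 replicate 3), from 2 to 4 for CT22 against CT10 and from 1 to 3 for the difference. The isoform count for KO against WT ran from 0 to 1 (1 without KO CT10 replicate 2). KO over WT estimates ran from -0.0719 to 0.0093 for Per1, -0.0677 to 0.061 for Per2, -0.1344 to 0.0873 for Per3, -0.1049 to 0.0136 for Cry1, -0.1025 to 0.0661 for Bhlhe40, -0.0701 to 0.062 for Bhlhe41, -0.0373 to 0.0279 for Csnk1e and -0.1768 to 0.4603 for Gm129 at CT22. With no change of sign they ran from -0.3583 to -0.0241 for Gm129 over both labels, -0.6729 to -0.3025 for Gm129 at CT10, 0.1802 to 0.4375 for Per2 at CT22 and 0.051 to 0.2134 for Per1 at CT22. Per3 for CT22 over CT10 in KO ran from -0.3437 to 0.0997. The depth of KO CT22 replicate 2 limits Gm129 most, at 27 counts.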
